A study of Drosophila melanogaster with 6 samples.

Results

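The samples described here were the pulse arrays of a TU-decay study in Drosophila melanogaster embryos, the U+actD 1-hour pulse and the UO 1-hour pulse, which are 2 of the 6 arrays in the series. They were chosen by their labels, not by a measured value. TU-decay follows RNA that was tagged while it was being made. Embryos take up the nucleoside 4-thiouridine during a 1-hour pulse, RNA made in that hour carries a thiol group, and the tagged RNA (TU-RNA) is biotinylated and purified. The other 4 arrays hold RNA after chases of 1 and 3 hours, and neither pulse sample had been chased. Each pulse array therefore reports TU-RNA made, and not yet degraded, within that hour, so a rapidly decaying RNA shows less than its full synthesis.

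Both samples were wild-type whole embryos of stage 12 to 15 from a UAS-T.g.UPRT strain with no GAL4 driver, so the transgene for uracil phosphoribosyltransferase was carried but had no driver. The embryos were reared at 18 or 25 °C, permeabilised, and pulsed in 1 mM 4-thiouridine at 30 °C. Collections of embryos were pooled for each time point before TU-RNA was purified. Actinomycin D, a blocker of transcription, was added with the chase medium of the U+actD series according to the methods, although the label of the U+actD pulse also carries the treatment name. Cy3-labelled RNA of each pulse was hybridised to 1 one-colour array, so there is no replicate of either pulse and no test between them, and every difference below compares these arrays rather than conditions.

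At these stages germ band retraction and dorsal closure take place, most neurons and muscles are differentiating, and larval gut and cuticle genes begin to be switched on. In RNA made over a single hour, genes of growing cells that are transcribed at a high rate (ribosomal proteins, cytoskeleton, chaperones) are usually prominent. Genes with long introns need more time before a polymerase reaches their 3′ end, and genes of late larval or adult tissues are usually silent.

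The signals came from 3 sources. The normalised table gave 1 column for each pulse, with 17331 spots in the U+actD column and 16578 in the UO column. The scanner file of the U+actD pulse held the same values as its table column at 100% of spots. The scanner file of the UO pulse did not: values matched at 0.0273% of 3660 probes with a single spot, and across 9654 probes the ranks had a Spearman's rho of 0.88. The UO column ranked closer to the scanner file of the U+actD 1-hour chase (rho 0.91), and the UO pulse scanner file ranked closest to the columns of the U+actD 3-hour chase (0.93) and the UO 1-hour chase (0.93). The UO column also repeats 1 value at every spot of a probe, at 100% of 5996 such probes. Which UO source holds the labelled hybridisation cannot be told apart here, so UO values are from the table unless the scanner file is named, and the main ones are given from both. The UO scanner array was dim. Its gene probes had a median net signal of 56 against 1276 on the U+actD pulse, and 54.6% of them were above background (the 95th percentile over the 153 negative controls) against 72.2%. The U+actD array was bright enough to saturate 3.46% of gene probes.

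Of 13140 genes with a probe on the array, 7895 had a value in both pulse columns, and these are the genes ranked. A gene's signal is the mean log2 signal over its probes, its percentile is its rank among the 7895 genes (100 is highest), and a difference is the log2 signal of the U+actD pulse minus that of the UO pulse after each array was centred on its median gene. Signals of different genes depend on their probes, so ranks compare signal and not molecules. The only error available was technical. The log2 signal varied over probes of a gene with a median SD of 0.84 on the U+actD pulse and 1.11 on the UO pulse, whereas the difference varied with a median SD of 0.52 (880 genes with several probes). Markers of neurons (5 of 5), neuroblasts (5 of 5) and glia (5 of 5) were above background on both scanner arrays. So were genes taken as markers of muscle (6 of 6), trachea (4 of 4), epidermis (3 of 3) and gut (4 of 4). Over all genes the share was 66.7%, so such small counts do not establish that a cell type was represented. On the UO scanner array brp (64), nSyb (72) and up (97) were near the limit of 51. Several markers, among them grh, vvl, ush, fkh and srp, are also in gene lists of other tissues. Of all 13140 genes 10597 were above background on the U+actD pulse and 9153 on the UO scanner array. Of 5 hemocyte markers 4 were above background on each scanner array, and Hml was on neither. Of 4 germ line markers 2 were above background on the U+actD pulse and 4 on the UO scanner array. In the same order, 2 and 1 of 5 yolk and eggshell markers were, and 1 and 2 of 4 adult male markers. Markers of late larval fat body, Fbp1 and Lsp2, were above background on neither.

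Across the 7895 genes the pulses ranked RNA similarly, with a rho of 0.89 between U+actD and the UO table and 0.82 between U+actD and the UO scanner file (rho across genes, which are not independent and share their probes). The median gene differed by 7.4 percentile points between the U+actD pulse and the UO table and by 9.9 against the UO scanner file. The middle of the differences ran from -0.74 at the 25th percentile to 0.37 at the 75th, and the SD over genes was 0.90. The probe spread of 0.52 is within genes on the same arrays, so it does not measure error between pulses. Membership overlapped at both ends. Of the 790 genes in the top 10% of the U+actD pulse, 71.3% were also in the top 10% of the UO table, which made 563 genes, and 430 of these were also in the top 10% of the UO scanner file. Saturation on the U+actD pulse was reached by 445 of the 563, so their order there is not resolved. At the low end 464 genes were in the bottom 10% of both columns. Only 8 genes were in the top 10% of the U+actD pulse and below the median of the UO column, and 0 were so in the other direction.

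**Figure D1:**
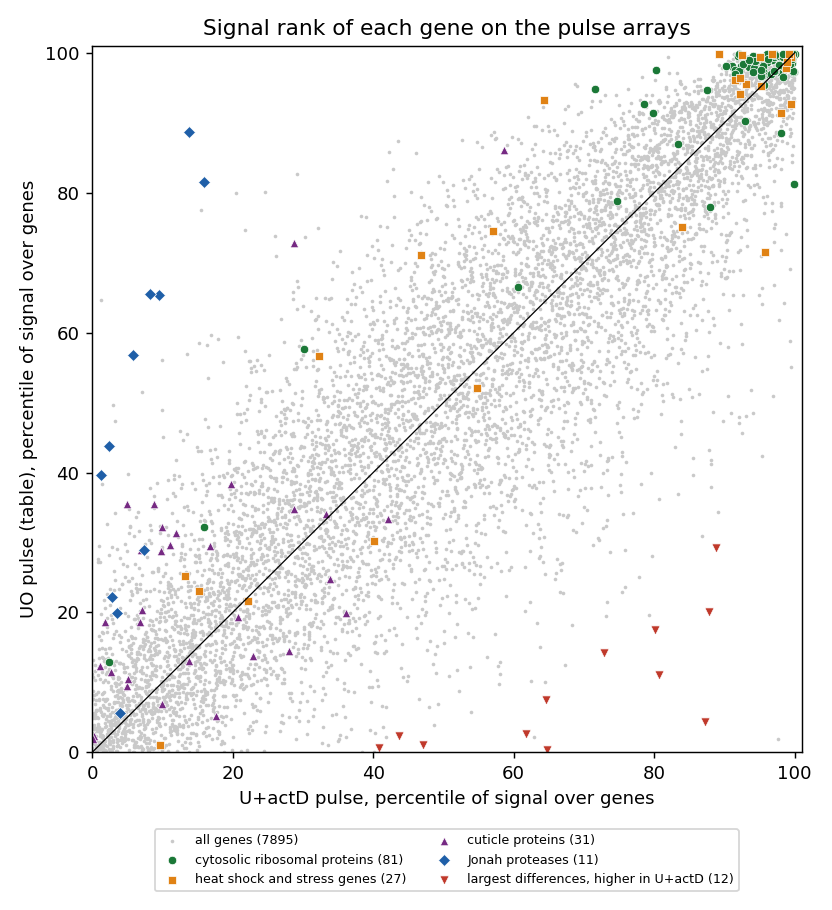
Each point is 1 gene, with its percentile of signal on the U+actD pulse on the x axis and on the UO pulse (table) on the y axis; the line marks equal rank. Most ribosomal protein genes sit in the upper right corner, 11 of 11 Jonah proteases lie above the line and the 12 genes with the largest differences toward U+actD lie far below it.

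By the lower of the percentiles in the table, the first genes were eEF2 (a translation elongation factor), RpL35A and RpS4 (ribosomal proteins), betaTub56D (the main embryonic β-tubulin), Tudor-SN, Gdi (which recycles Rab GTPases), Hsp26 (a small heat shock protein) and RpL15. eEF2 gave 65255 on the U+actD pulse, 71433 in the UO table and 59474 in the UO scanner file. betaTub56D gave 65273, 71408 and 65409 in the same order. Each of the first 25 genes was saturated on the U+actD pulse, so their order among themselves is not resolved there.

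The UO scanner file, saturated at 66 of the ranked genes against 651 on the U+actD pulse, spread these genes further apart. eEF2, RpL15 and betaTub56D were at the 99.68, 99.91 and 99.99 percentile there. Hsp26 was at the 88.9 percentile, with a signal of 2900. Others of the first 25 with lower scanner ranks were CG11825 (93.0), Hsp70Ba (94.1) and emc (94.4), a HLH partner of proneural proteins. Pdi (protein disulfide isomerase of the endoplasmic reticulum) gave 64075, 70688 and 28557, and Gp93 (the endoplasmic reticulum member of the Hsp90 family) gave 64898, 70058 and 24968. Sumo (the small protein modifier) gave 64031, 71433 and 34087, and NimC4 (a phagocytic receptor of glia and macrophages, also called simu) gave 63770, 70688 and 28841.

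Cytosolic ribosomal protein genes had the highest median percentile of the 49 gene lists in each source. Of 83 cytosolic ribosomal protein genes on the array 81 were measured, and 67 of the 81 (82.7%) were in the top 10% on both pulses, against 7.13% of all genes. Their median percentile was 95.3 on the U+actD pulse, 98.1 in the UO table and 99.4 in the UO scanner file. They held 3.26% of the summed signal of ranked genes on the U+actD pulse, 6.11% in the UO table and 24.8% in the UO scanner file. The shares are limited by saturation, which was reached by 70 of the 81 on the U+actD pulse and by 53 on the UO scanner array.

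Only 2 members were below the median on both pulses. RpS10a, a duplicate gene whose paralog is RpS10b, gave 795 on the U+actD pulse and 857 in the UO table (2.36 and 12.9 percentile), and RpS19b was at the 15.9 and 32.2. In the UO scanner file RpS10a was higher, at the 68.2 percentile, and RpS19b was at the 33.6. RpL32, a common reference gene, was at the 97.8, 99.5 and 99.1 percentile in the 3 sources. Another reference gene, Gapdh1 of glycolysis, was at the 7.47, 16.1 and 41.4 percentile, and its value is the mean of 2 probes. The duplicate genes RpL34b and RpS5b were past 4-fold toward UO, by 4.95-fold and 4.79-fold.

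Other housekeeping lists are given with the same count, which was 7.13% over all genes. Translation factors had median percentiles of 89.8 and 93.1 in the table and 93.5 in the UO scanner file, with 19 of 45 in the top 10% on both pulses. Their tissue-restricted member eEF1alpha2 was at the 18.9 and 20.2 percentile. Nucleolar and growth genes, which assemble ribosomes, had 8 of 19 in the top 10% on both pulses. Nopp140, a nucleolar phosphoprotein, and Fib, the fibrillarin methyltransferase, were both above the 96th percentile in every source. Myc, a transcription factor of cell growth, was at the 83.3, 77.6 and 50.9 percentile. Respiratory chain and ATP synthase subunits had 14 of 63 in the top 10% on both, among them ATPsynE at the 97.5 and 99.2 percentile. Proteasome subunits had 3 of 34 (8.82%), near that share, among them Rpt6 at the 95.1 and 97.6. Mitochondrial ribosomal proteins had 0 of 68, with medians of 58.6 and 67.3. Of the tubulins, actins and histones measured, 4 of 9, 4 of 4 and 6 of 12 were in the top 10% on both. Not all were high: 3 of the 9 tubulins and 1 of the 12 histones were below the median on both pulses. The lowest tubulin was alphaTub67C, at the 6.02 and 5.4 percentile. Histone genes are repeated copies with nearly the same sequence, so their probes cannot be tied to a single copy.

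Heat shock and stress genes ranked high as well. Of 31 genes on the array 27 were measured, 14 of them (51.9%) in the top 10% on both pulses, against 7.13% of all genes. Of the 14, 9 were also in the top 10% of the UO scanner file. The median percentiles were 92.2 and 93.3 in the table and 85.4 in the UO scanner file. The constitutive chaperones Hsp83 (Hsp90) and Hsc70-4 were at the 98.8 and 96.9 percentile of the U+actD pulse. The inducible genes were at similar ranks in the table. Hsp70Ba gave 64300 on the U+actD pulse, 71433 in the UO table and 5051 in the UO scanner file. Hsp22, a mitochondrial small heat shock protein, gave 59099, 42910 and 2297. Hsp23 gave 51441, 47332 and 5023, and Hsp27 gave 54751, 43713 and 3613. Both pulses were done at 30 °C in permeabilised embryos, and no pulse at another temperature was analysed here. Copies of the Hsp70 genes are nearly identical and can share probes. The stress genes were not uniform: 5 of the 27 were below the median on both pulses, and MtnA, a metallothionein, was 5.03-fold higher in UO.

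**Figure D2:**
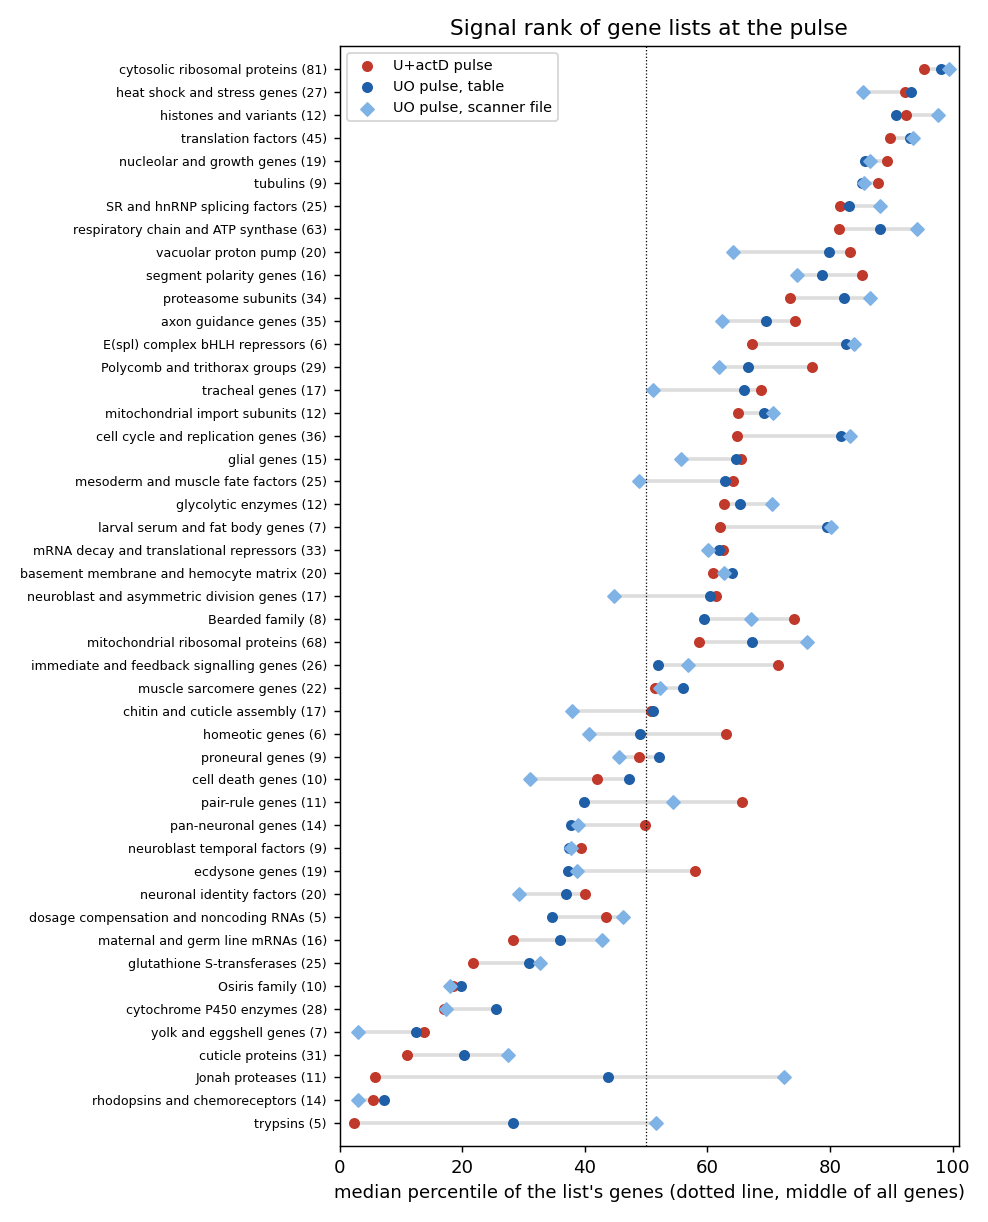
Median percentile of the genes of each list with at least 5 measured (number in brackets) on the U+actD pulse, in the UO table and in the UO scanner file; the dotted line is the middle of all genes. Ribosomal proteins, heat shock genes, histones and translation factors are near the top, chemoreceptors and cuticle proteins near the bottom, and Jonah proteases and trypsins show the widest gap between arrays.

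Developmental regulators ranged from the lowest to the highest ranks. Segment polarity genes keep parasegment boundaries through Hedgehog and Wingless signalling. Their medians were 85.2 and 78.6 in the table and 74.6 in the UO scanner file. Of 16 measured 4 were in the top 10% on both (25.0%, against 7.13% of all genes). Of those, 2 were also in the top 10% of the UO scanner file. The Hedgehog receptor ptc gave 63145 and 56490 (98.2 and 97.3 percentile) and its transcription factor ci gave 63665 and 65868. The ligands ranked lower, with hh at the 48.44 and 59.96 percentile and wg at the 14.9 and 13.6. Homeotic genes, which set segment identity, ran from Ubx (88.96 and 85.7) to lab (38.6 and 19.4). Pair-rule genes, whose striped phase is past at these stages, ran from drm (91.4 and 87.5 percentile) to eve (3.95 and 4.95). Axon guidance genes had 5 of 35 in the top 10% on both (14.3%, against 7.13% of all genes), among them drl and robo2, receptors of growth cones. Of those, 2 were also in the top 10% of the UO scanner file. Of 6 E(spl) complex repressors, which respond to Notch, E(spl)m3-HLH and E(spl)mbeta-HLH were in the top 10% on both. In the UO scanner file they were at the 84.4 and 96.2 percentile.

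Genes of the nervous system covered nearly the whole range. Of the related neuronal RNA-binding proteins, elav gave 63002 and 23425 (98.1 and 89.5 percentile) and fne gave 64365 and 22696 (99.3 and 89.1), whereas Rbp9 gave 2111 and 1087 (13.53 and 16.95). The synaptic vesicle gene nSyb was at the 14.1 and 21.3 percentile, with 2219 and 1351. Neuroblast genes were in the middle, with dpn at 11428 and 4533 (52.9 and 52.4) and pros, which ends self-renewal, at 24474 and 7748 (75.8 and 67.0). Of the temporal factors of neuroblasts 8 of 9 measured genes were below the median on both pulses, as were 3407 of all 7895 genes. svp was at the 39.4 and 34.2 percentile. Glial regulators were spread, with repo at 60.6 and 60.7 and gcm, which switches on glial fate, at 27.4 and 49.1. In whole embryos fewer cells of a type and less RNA per cell cannot be told apart. In the UO scanner file elav was at the 93.8 percentile and nSyb at the 10.4.

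Muscle and matrix genes included several of the highest tissue genes. Act57B, a muscle actin, gave 51005 and 71433 (91.4 and 99.9 percentile), and Mhc, the muscle myosin heavy chain, gave 61905 and 14736 (97.0 and 81.7, and 72.9 in the UO scanner file). The sarcomere list as a whole was in the middle, with medians of 51.4 and 56.0. The laminin genes LanA, LanB1 and LanB2, which encode basement membrane subunits, were above the 91st percentile in every source, and collagen IV genes Col4a1 and vkg were lower, at the 40.9 and 37.0 percentile of the U+actD pulse and the 64.4 and 59.0 of the UO table. ImpL2, an ecdysone-inducible binding protein for insulin-like peptides, was the highest of the ecdysone list in the UO table (98.7 and 96.9), and the early ecdysone genes Eip74EF (3.57 and 0.22) and br (22.5 and 12.7) were low.

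Families of later life were often without a value. Of 122 cuticle protein genes on the array 31 had a value on both pulses, against 60.1% of all genes. Of these 29 were below the median on both, as were 3407 of all 7895 genes, and 35 of the 122 were above background on neither scanner array. The others were Cpr65Ax1, at the 58.6 and 86.1 percentile, and Lcp65Ag2, at the 28.7 and 72.8. Of 125 rhodopsin and chemoreceptor genes 14 were measured, all 14 below the median on both pulses, and 79 of the 125 were above background on neither scanner array, against 16.3% of all genes. Yolk and eggshell genes had 7 of 22 measured, 6 of them below the median on both. Enzyme lists differed in coverage, with 28 of 86 cytochrome P450 enzymes and 25 of 35 glutathione S-transferases measured on both pulses. Below the median on both were 21 of the 28 and 16 of the 25, with 7 of the 25 above it on both. These lists were added after values had been seen.

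The pulses differed in rank for a small set of genes. Of 7895 genes 137 (1.74%) were at least 4-fold higher on the U+actD pulse and 105 (1.33%) at least 4-fold higher in the UO table. Set against the UO scanner file the numbers were 203 (2.57%) and 641 (8.12%), and 76 of the 81 ribosomal protein genes, 70 of which were saturated on the U+actD pulse, were among the 641. The split of 137 and 105 moved with the scaling, to 176 and 70 at the 75th percentile, 159 and 77 after quantile normalisation, 157 and 76 after lowess, and 675 and 311 for the scanner file on the spike-in scale. Of the 137 genes higher in U+actD in the table, 116 had a difference of the same sign against the scanner file, and of the 105 higher in UO, all but 4 did. Both differences are taken from the same U+actD array, so part of this agreement in sign is built in. Genes higher in UO had a median length of 990 bases, and those higher in U+actD of 5034 bases.

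**Figure D3:**
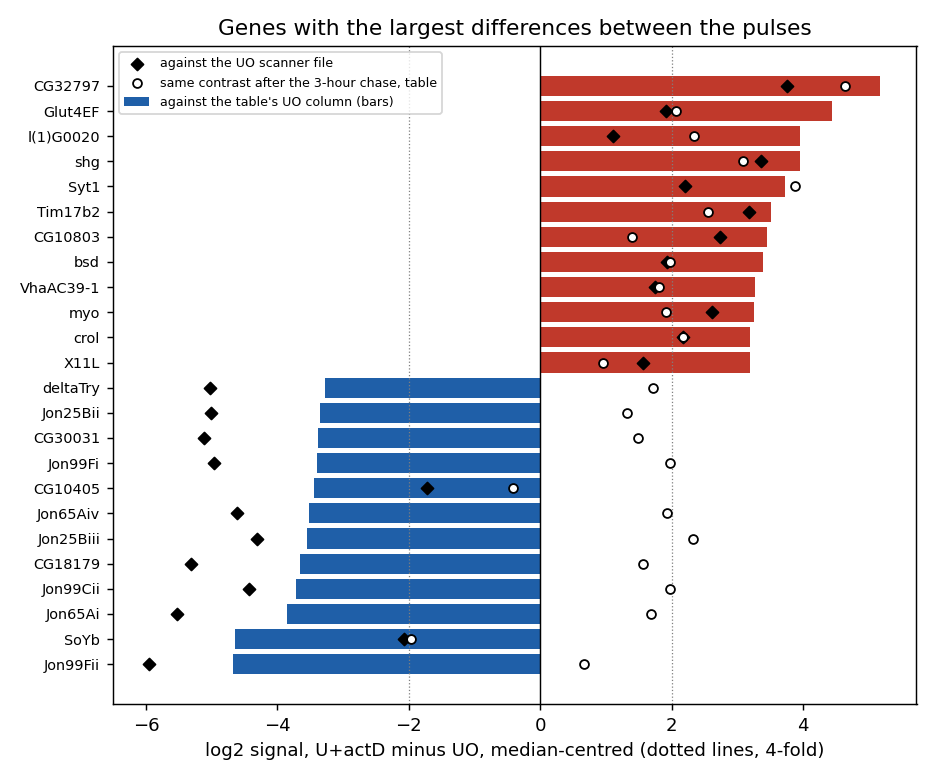
Log2 signal of the U+actD pulse minus that of the UO pulse for the 12 genes with the largest differences in each direction (bars), with the same difference against the UO scanner file (diamonds) and the contrast of the table after the 3-hour chase (open circles). The genes were chosen for the same sign in the bars and the diamonds. After the chase 12 of 12 genes higher in U+actD and 10 of 12 higher in UO lie to the right of 0.

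Jonah protease genes were higher in UO. These are serine proteases of the chymotrypsin fold made in the larval midgut. Of 15 Jonah genes on the array 11 were measured on both pulses, and 8 of the 11 were at least 4-fold higher in UO, against 1.33% of all genes. 0 were higher in U+actD. Their median difference was -3.39 against the table and -4.43 against the UO scanner file, and their median percentile was 5.84 on the U+actD pulse, 43.8 in the UO table and 72.5 in the UO scanner file. Jon99Fii gave 2165 on the U+actD pulse, 22067 in the UO table and 6512 in the UO scanner file, which made it 25.5-fold higher in UO after centring and 61.9-fold against the scanner file. Jon65Ai gave 2505, 14565 and 5614, a difference of 14.6-fold in the table. Jon25Biii gave 1567, 7313 and 1512, and Jon99Cii gave 1414, 7375 and 1481. The smallest difference in the table was that of Jon99Ci (964, 524 and 245), at -0.45. Jonah genes lie in clusters of close copies, so probes of neighbouring members can share RNA, and the 11 values are not independent.

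**Figure D4:**
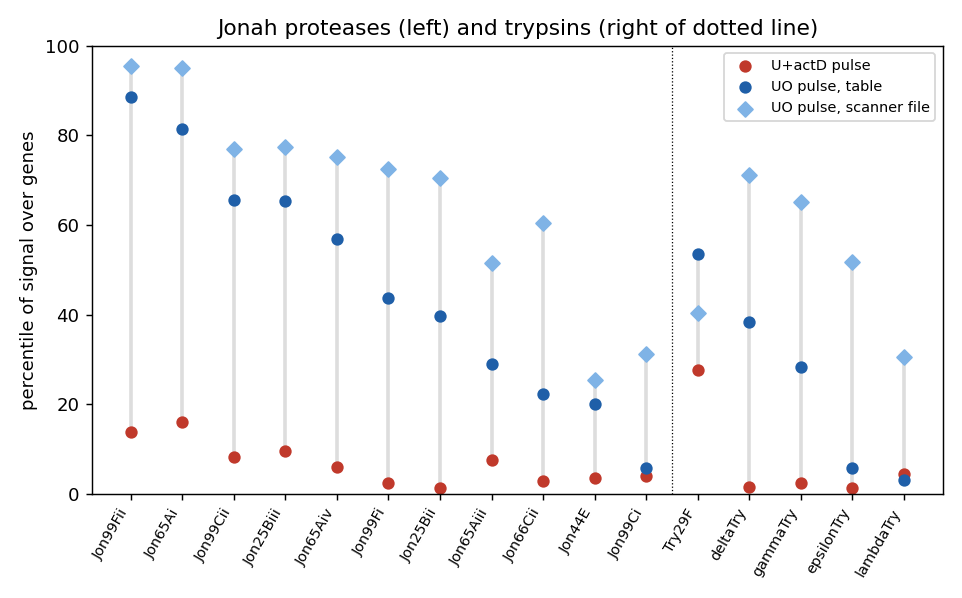
Percentile of signal over genes for each measured Jonah protease (left of the dotted line) and trypsin (right) on the U+actD pulse, in the UO table and in the UO scanner file. Every Jonah gene is at or below the 16th percentile on the U+actD pulse, and 11 of 11 are higher in both UO sources.

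Some other protease genes were also higher in UO. The trypsins deltaTry and gammaTry, digestive serine proteases, were 9.61-fold and 5.86-fold higher in UO in the table and 32.7-fold and 23.2-fold against the scanner file. CG30031 of the same gene cluster was 10.4-fold and 34.8-fold higher. CG18179 gave 2416, 12082 and 4684, a difference of 12.5-fold. lambdaTry and epsilonTry were not past 4-fold in the table, at -0.00 and -0.90, and were past it against the scanner file, at -2.28 and -3.97. Of the 5 trypsins measured 2 were past 4-fold toward UO in the table and 4 against the scanner file. The shares of all genes were 1.33% and 8.12%. The 4 genes taken as gut markers, some of which are also in lists of other tissues, did not share a direction. GATAe, which drives endodermal differentiation, differed by 1.21 in the table and 2.20 against the scanner file, and srp by 0.74 and 0.12. fkh was at 0.60 and -0.25, and byn, which specifies the hindgut, at -0.48 and 0.56.

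The Jonah genes also changed rank across the chases. In the U+actD columns of the table their median signal was 1147 at the pulse, 5086 after the 1-hour chase and 2167 after the 3-hour chase, and their median percentile went from 5.9 to 43.7 and 58.6. In the UO columns it was 3356, 2696 and 264, at the 43.9, 49.8 and 22.6 percentile. The U+actD pulse was thus the array with the lowest rank of these genes in the table. In the U+actD scanner files it was 6.6, 42.0 and 52.7. In the UO scanner files the median percentile was 68.2 at the pulse, 19.4 after the 1-hour chase and 9.8 after the 3-hour chase.

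Other genes higher in UO came from several lists or none. SoYb, a Tudor-domain protein of the piRNA pathway, gave 713 on the U+actD pulse and 7101 in the UO table (25.0-fold) and 147 in the UO scanner file (4.24-fold), so the UO sources placed it at the 64.7 and 20.6 percentile. CG10405 showed the same disagreement between sources (47.4 and 19.8). Some members of other lists were past 4-fold toward UO in both sources. Of the cell cycle and replication list these were fzy, an activator of the anaphase-promoting complex (4.56-fold and 5.53-fold), and Incenp of the chromosomal passenger complex (4.08-fold and 6.67-fold). Tom7 of the mitochondrial import pore (5.51-fold and 10.5-fold) and Adh, alcohol dehydrogenase (4.36-fold and 6.92-fold), were others. In the table the cell cycle and replication list had 2 of 36 measured genes past 4-fold toward UO and 0 toward U+actD. The mitochondrial import list and the larval serum and fat body list each had 1 member past it in each direction. The nucleolar and growth list had 2 of 19 past it toward U+actD and 0 toward UO. Cuticle genes past 4-fold in the table were Lcp65Ag2, TwdlD and TwdlK, each higher in UO. They were 3 of 31 measured, against 1.33% of all genes. Against the scanner file 10 of the 31 were past 4-fold toward UO and 1 toward U+actD. The shares of all genes there were 8.12% and 2.57%. Of 25 glutathione S-transferases measured, GstD2, GstD5, GstD7 and GstD9 were past 4-fold toward UO in the table, 7.69-fold for GstD2. Of these only GstD9 was past it against the scanner file, and GstD2 was 1.95-fold higher in U+actD.

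Genes higher in U+actD were of mixed function. CG32797 had the largest difference among unsaturated genes, with 40578 on the U+actD pulse, 451 in the UO table and 146 in the UO scanner file (35.9-fold and 13.5-fold). shg, the E-cadherin of adherens junctions, gave 29884, 771 and 141 (15.5-fold and 10.3-fold). Syt1, the synaptotagmin that senses calcium for transmitter release, gave 42220, 1272 and 445 (13.2-fold and 4.61-fold). Glut4EF, a transcription factor, gave 16716, 307 and 216 (21.7-fold and 3.76-fold), and l(1)G0020 gave 15155, 389 and 341 (15.5-fold and 2.16-fold). myo (myoglianin, a TGF-β family ligand) was 9.52-fold and 6.13-fold higher, and crol, a zinc finger protein, 9.15-fold and 4.49-fold. Also higher were bsd, CG10803, X11L, Tim17b2 and VhaAC39-1, with differences from 3.19 to 3.51. Glut4EF, VhaAC39-1, Tim17b2, X11L and l(1)G0020 were at or below the 2.61 percentile of the UO table, close to its lowest value. Their fold sizes against the table therefore depend on that lowest value. Tim17b2 was also not above background in the UO scanner file, so its value there was the limit set for that file. The 12 genes were below the 30th percentile in the UO table and at the 40.8 to 88.8 percentile on the U+actD pulse. The same contrast between the series was 3.15 at the median after the 1-hour chase and 2.12 after the 3-hour chase, positive in 12 of 12 genes at each. CG34354 was saturated on the U+actD pulse and had the largest difference of all 137 in the table. It gave 62566 on that pulse, 362 in the UO table and 1080 in the UO scanner file. Its difference was 6.11 against the table and 1.49, under 4-fold, against the scanner file. Saturation makes both values lower bounds. The UO sources disagreed on it, at the 1.94 and 70.1 percentile.

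Single members of other lists were past 4-fold as well. The pair-rule repressor hry (2.23), the motor neuron factor Lim3 (2.29) and the EGFR target kek1 (2.30) were past 4-fold toward U+actD in the table, and against the scanner file their differences were 1.01, 1.42 and 2.93. The ecdysone receptor partner usp gave 9350, 615 and 225, a difference of 2.60 in the table and 1.02 against the scanner file. scyl (2.70) and Ns1 (2.63) were also past 4-fold in the table, with 0.44 and 0.42 against the scanner file. E(spl)mdelta-HLH was past 4-fold toward UO in the table, at -2.03, and not against the scanner file, at -1.17.

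The difference between the arrays rose with gene length. In 805 genes under 1 kb the median difference was -0.70, in 2587 genes of 2 to 5 kb it was -0.21, and in 204 genes over 50 kb it was 0.28 (lengths of the RefSeq genes of Drosophila Release 6). After lowess centring these were -0.45, -0.01 and 0.45, and against the UO scanner file -1.16, -0.05 and 0.64. Leaving out saturated genes gave -0.66, -0.17 and 0.34. From the shortest to the longest genes the median percentile went from 34.5 to 60.1 on the U+actD pulse, from 42.9 to 49.7 in the UO table and from 57.4 to 41.8 in the UO scanner file. Of genes under 1 kb 53 of 805 were at least 4-fold higher in UO (6.58%, against 1.33% overall), and of genes over 50 kb 0 of 204. The Jonah and trypsin genes are among the short ones, and the part of length in their difference was not tested. Spearman's rho between length and difference was 0.28 against the table and 0.43 against the scanner file, across genes, which share the arrays.

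**Figure D5:**
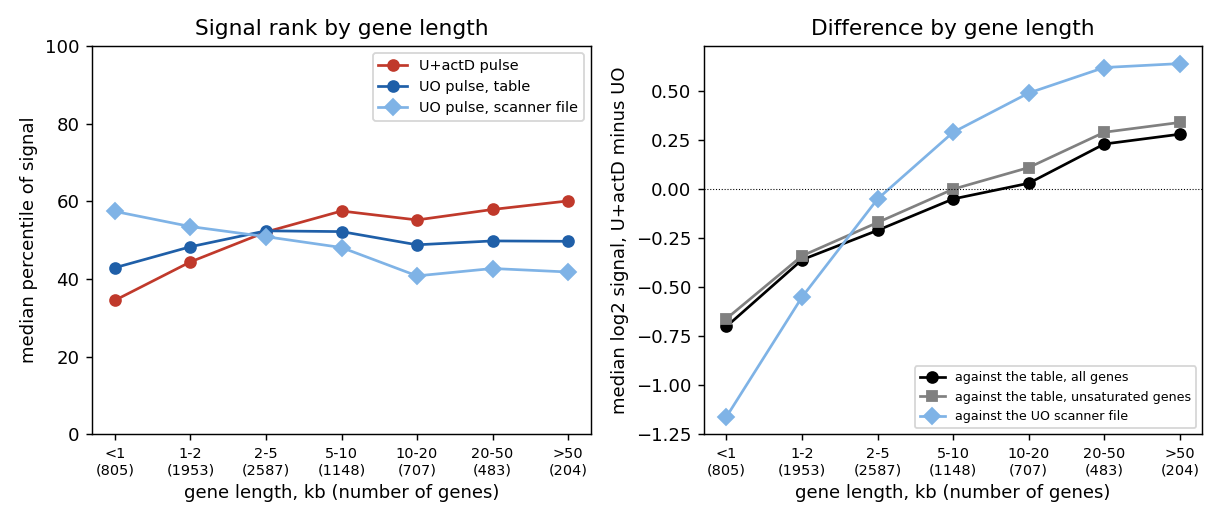
Left, median percentile of signal for genes in bins of gene length on the U+actD pulse, in the UO table and in the UO scanner file; right, median log2 difference between the pulses in the same bins. Genes under 1 kb have a median percentile of 34.5 on the U+actD pulse, and the difference rises from -0.70 to 0.28 with length.

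Many genes had a value in a single column. The U+actD column alone held 1152 genes, whose median percentile was 10.3, and the UO column alone held 400, at 9.25. Most lay near the low limit of a column, since only 54 and 22 of them were above the median. wnd, a kinase of axon injury signalling, was in the U+actD column only with 62176, and its probe gave 1973 on the UO scanner array. Ser, a Notch ligand, was in the UO column only with 22098, and gave 32295 on the U+actD scanner array. A gene with no value in a column could therefore still have signal on a scanner array.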

How the data were processed

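TU-RNA of both pulses was measured on one-colour Agilent arrays. The authors scanned Cy3 at 532 nm. The deposited scanner files give each of 45220 spots a net intensity and a percent of saturated pixels. The deposited table holds intensity values of the same arrays, which the methods describe as normalised with spike-ins within a series. UO pulse values are whole numbers times 1.09, and the lowest values are 600 on U+actD and 301 on UO. The series matrix held the same numbers. Scanner settings were not given in the sources used here.

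Spots were averaged as log2 over probe and then gene. Probes were named through the platform table (14511) or the authors' gene name (6132), and 11519 had no gene. A probe was saturated at 50 percent of pixels. Values of the UO scanner file at or below 51, the 95th percentile of its negative control spots, were set to that limit. Calls needed a 4-fold difference. With 1 array per pulse no p-value was computed. The code that makes the calls was checked on simulated data with known differences, which says nothing of the real calls. The alternatives were other scalings (lowess with a span of 0.3, 75th percentile, quantile, spike-ins), the scanner file, the brightest probe, normexp (limma 3.58.1, offset 50), saturation and background filters and other limits. The named genes were the 25 with the highest lower percentile, the 12 unsaturated genes with the largest difference each way that were also 2-fold apart the same way against the scanner file and in the upper 2/3 of at least 1 array, reference genes, and leading, middle or called members of lists. Other members were named after their values were seen. The members and lists were chosen with earlier results of these data known. Python 3.11.15, pandas 2.3.3 and statsmodels 0.14.6 were used. No sequences are printed.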

Additional observations from a re-analysis of the deposited data

Results flagged for a closer look

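Signal outside the measurements above came from array probes that no table used here ties to a gene. Of 11519 such probes 3887 (33.7%) were above background on both pulse scanner arrays, where background is the 95th percentile of the negative control spots, against 61.0% of probes with a gene. Saturation on both arrays was reached by 27 of the unnamed probes and by 95 of the named ones.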

How the results depend on the processing

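Each pulse was 1 array, signal over background limited the UO scanner array and saturation the U+actD pulse, so differences of saturated genes are not resolved. With the UO scanner file in place of the table, rho fell to 0.82, genes 4-fold higher in UO rose to 641, and the median difference became -4.18 for ribosomal proteins and -4.43 for Jonah proteases. With that file and lowess centring, an alternative added after seeing the data, 386 genes were higher in UO. The median difference was then -0.4 for ribosomal proteins and -4.56 for Jonah proteases. On its spike-in scale, from 3 transcripts, 675 genes were higher in U+actD and 311 in UO. The median gene was then 0.49 higher in log2 on the U+actD pulse. Lowess centring of the table moved the ribosomal proteins from -1.45 to -0.21, and the counts from 137 and 105 to 157 and 76. Limits of 2-fold and 8-fold gave 704 and 23 genes higher in U+actD and 1323 and 15 in UO, and the top 5% and top 2% on both pulses held 222 and 59 genes. The 75th percentile gave 176 and 70 genes and quantile normalization 159 and 77. The brightest probe and leaving out saturated probes or probes within the negative controls kept these counts within 1.5 times. No paired analysis was possible because each pulse has 1 array and no statistical test was made.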
